A study of Mus musculus with 12 samples.

Results

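Extracellular matrix and fibrosis genes were followed in whole kidneys of mice with methylmalonic acidemia and their controls. The set holds 43 genes picked by name: collagens, basement membrane chains, matrix glycoproteins and proteoglycans, proteases with their inhibitors and crosslinkers, the transforming growth factor beta (TGF-beta) pathway, and myofibroblast and pericyte genes. On the arrays 41 of them had a probe set annotated to that gene alone, out of 19934 genes tested, and each of the 41 had 1 such probe set. The probe set that covers Loxl2 also carries another gene's symbol, and Pdgfra had no probe set in the annotation used, so neither was analysed here.

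The mutants were Mut -/- mice, without a functional gene for the mitochondrial enzyme methylmalonyl-CoA mutase. They also carried TgINS-Alb-Mut, a transgene that expresses Mut from an albumin promoter, which is active chiefly in liver. Heterozygotes (Mut +/-) and wild-type mice (Mut +/+) served as controls. Each genotype had 4 arrays, and all 12 came from female mice of C57BL/6 background that had eaten a high protein diet for 2 months. The labels used here give the transgene to the mutants alone, so its effects and the loss of Mut cannot be told apart. The genotypes were compared to ask which kidney transcripts differ in the mutants. No age is given in the labels used here.

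Kidney fibrosis is the build-up of fibrillar collagen and fibronectin between the tubules. It is laid down by fibroblasts and pericytes that turn into myofibroblasts, contractile cells that express smooth muscle actin. TGF-beta, released from a latent matrix-bound form, drives that change, and the matricellular CCN proteins act beside it. The basement membranes under tubules and in the glomerulus are a separate sheet of collagen IV and laminin, and matrix metalloproteinases and their tissue inhibitors (TIMPs) set how fast either kind of matrix is broken down.

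Levels below are the authors' log2 signals, so a difference of 1 is a doubling, and the level of one gene cannot be set against that of another. Array medians lay between 7.17 and 7.23. The targeted gene (current symbol Mmut) read 8.21 to 8.47 in mutants, 9.87 to 9.97 in heterozygotes and 10.47 to 10.60 in wild-type mice. The mean of 9 proximal tubule markers was 10.86 on mutant replicate 3 and 11.25 to 11.48 on the other mutant arrays. It was 11.36 to 11.47 in heterozygotes and 11.36 to 11.44 in wild-type mice. A pair of mutant arrays stood apart in markers of other tissue. The mean of 6 adrenal genes was 9.98 on mutant replicate 3 and 6.13 to 6.45 on the other 11 arrays, with the steroid hydroxylase gene Cyp11b1 at 12.65 there and at most 6.58 elsewhere. On mutant replicate 2 the neutrophil genes S100a8 and S100a9 read 8.57 and 9.38, against at most 5.57 and 7.05 elsewhere. What these arrays add to the matrix signals was not tested beyond leaving them out. Calls that ended without mutant replicate 3 are named below. Sizes of differences without it are given for some genes only, so others can also lean on that array. In whole kidney, fewer cells of a type and less RNA per cell cannot be told apart.

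Against wild type 6 of the 41 genes passed the test in mutants (limma, Benjamini-Hochberg adjusted p under 0.05 over all genes). That is 14.6% of the genes, against 9.66% of all genes tested. The matrix proteases Mmp7 and Mmp14 rose, and Chrdl1, Acta2, Ccn2 and Col4a3 fell. Of all genes 2.96% were called higher and 6.69% lower. Against heterozygotes 4 passed, 9.76% beside 2.54% of all genes. Of these Mmp7 rose, and Chrdl1, Tagln and Col4a3 fell, beside 1.07% of all genes higher and 1.46% lower. All 4 mutant arrays lay above or below all 4 wild-type arrays in 8 of the 41 genes, or 19.5% beside 14.7% of all genes, and above or below all 4 heterozygote arrays in 6, or 14.6% beside 9.69%. These comparisons share the mutant arrays. None of the 5 fibrillar collagen genes or the 3 collagen VI genes passed in either comparison. The median difference over the 41 genes was -0.03 against wild type and -0.07 against heterozygotes, and over all genes it was 0.00 and -0.01. With mutant replicate 3 left out, the genes called numbered 1 higher and 3 lower against wild type (7.79% of all genes called), and 1 higher and 1 lower against heterozygotes (2.2% of all genes called). Without mutant replicate 1 they numbered 9 higher and 3 lower against wild type.

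**Figure D1:**
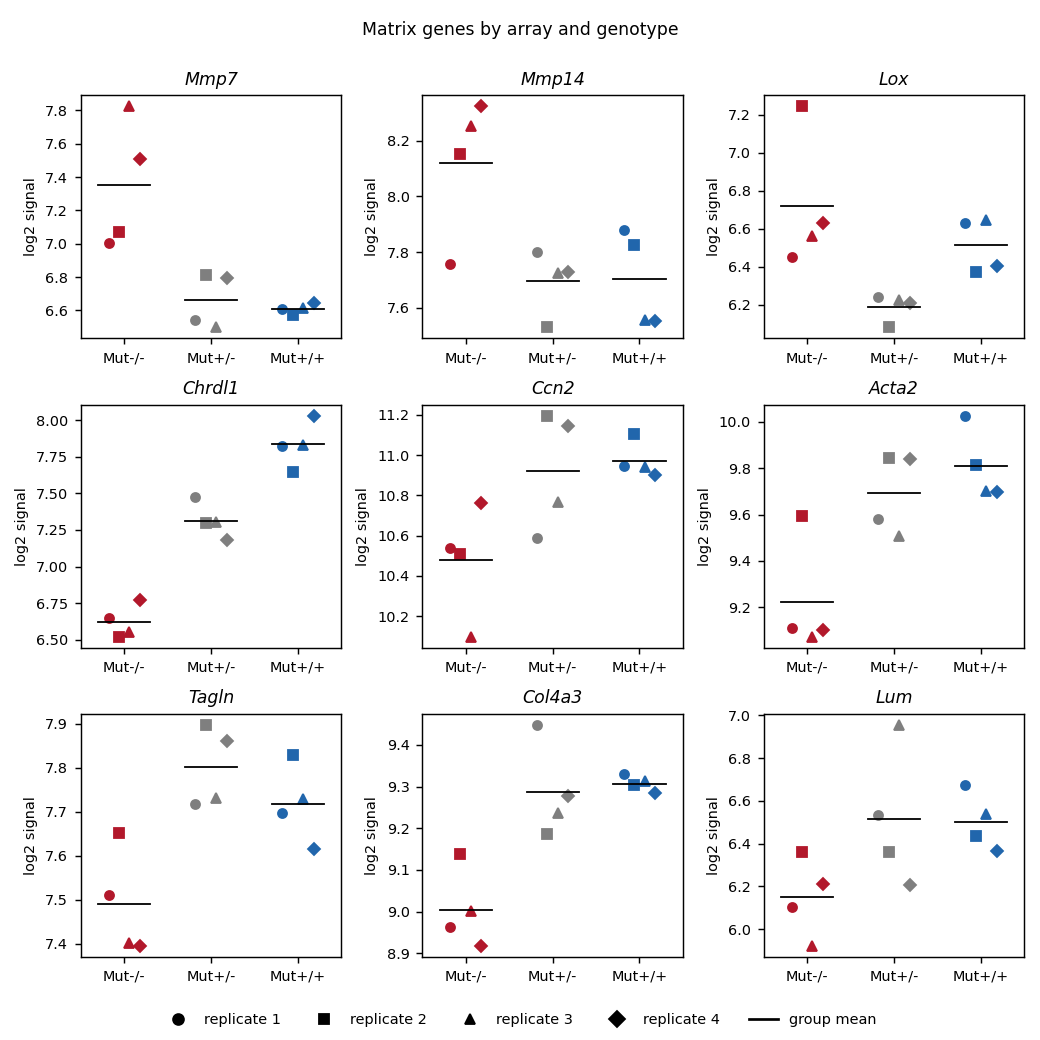
Log2 signal of 9 matrix genes on each of the 12 arrays, grouped as Mut-/-, Mut+/- and Mut+/+ from left to right, with a marker for each replicate and a line at the group mean. The axes differ between genes. Mutants lie above both control groups in Mmp7, where they reach 7.82, and below both in Chrdl1, where they reach 6.77.

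Among the proteases, Mmp7 encodes matrilysin, a small secreted metalloproteinase of epithelial cells. Its level was 7.005, 7.07, 7.82 and 7.51 in mutant replicates 1 to 4, 6.54, 6.81, 6.498 and 6.80 in heterozygotes, and 6.61, 6.57, 6.62 and 6.64 in wild-type mice. Every mutant lay above every control array, and replicates 3 and 4 were the highest. Mmp7 rose 1.67-fold against wild type (log2 difference 0.74, SE 0.15, adjusted p = 0.00718 by limma) and 1.61-fold against heterozygotes (log2 difference 0.69, SE 0.15, adjusted p = 0.0252). The two-sided exact permutation p was 0.0286 in both comparisons, the smallest that 4 against 4 arrays can give. The rise was smaller without mutant replicate 3, with a log2 difference of 0.58 against wild type (adjusted p = 0.0075) and 0.53 against heterozygotes (adjusted p = 0.0275). The call against heterozygotes ended without mutant replicate 4 (adjusted p = 0.0513) and without heterozygote replicate 1, 3 or 4 (adjusted p = 0.0789, 0.0745 and 0.0504).

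The RefSeq promoter window of Mmp7 (GRCm38.p6, plus strand, chr9:7691840-7692139, from 250 bases before the start site to 50 after it) is shown, the upstream one of its 2 windows, because this was the member with the largest rise. Capitals mark the AP-1 motif TGANTCA and the TATA box motif TATAAA, both searched on both strands.
Mmp7 promoter: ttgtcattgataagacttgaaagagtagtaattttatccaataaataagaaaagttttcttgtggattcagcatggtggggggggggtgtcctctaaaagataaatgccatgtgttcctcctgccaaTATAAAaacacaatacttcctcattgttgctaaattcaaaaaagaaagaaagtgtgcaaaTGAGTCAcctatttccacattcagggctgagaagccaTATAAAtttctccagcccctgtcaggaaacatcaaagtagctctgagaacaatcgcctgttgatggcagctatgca
The AP-1 match begins 63 bases before the start site, and the TATA matches begin 123 and 26 bases before it, none of them overlapping. The AP-1 letters occur in 7.81% of all 32851 promoter windows and the TATA letters in 13.6%. RefSeq windows were found for 28 of the 43 genes, and besides Mmp7 only Col6a1 among them held the AP-1 letters. A match of letters is a description and not a mapped site.

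Mmp14 encodes a membrane-anchored metalloproteinase that cleaves fibrillar collagen and activates the gelatinase made from Mmp2. Mmp14 read 7.76, 8.15, 8.25 and 8.32 in mutants, 7.80, 7.53, 7.72 and 7.73 in heterozygotes, and 7.88, 7.83, 7.56 and 7.55 in wild-type mice. Mutant replicates 2, 3 and 4 lay above every control array, while replicate 1 lay within the range of both control groups. The gene was 1.34-fold higher than in wild type (log2 difference 0.42, SE 0.12, adjusted p = 0.0373), and the difference from heterozygotes was 0.43 (adjusted p = 0.074). Its exact permutation p was 0.0857 against wild type and 0.0571 against heterozygotes. The call against wild type ended without any 1 of 8 arrays, namely mutant replicates 2, 3 and 4 (adjusted p = 0.0728, 0.0861 and 0.0873), heterozygote replicates 3 and 4 (adjusted p = 0.0514 and 0.052) and wild-type replicates 2, 3 and 4 (adjusted p = 0.0558, 0.0996 and 0.12).

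Of the remaining genes of this role none passed the test. Mmp2 itself had a log2 difference of -0.30 against wild type (SE 0.12, adjusted p = 0.153). It lay between 7.57 and 7.69 in mutants 1 to 3 but at 8.23 in replicate 4, against 8.02 to 8.20 in heterozygotes and 7.94 to 8.21 in wild-type mice. Without mutant replicate 4 Mmp2 was called lower in both comparisons. Timp3, an inhibitor bound to the matrix, was lower on all 4 mutant arrays (12.07 to 12.60) than on any wild-type array (12.62 to 12.76), with a difference of -0.25 and adjusted p = 0.14. Mutant replicate 3 was its lowest array, and without it the difference was -0.14. Timp2 differed by -0.11 (adjusted p = 0.514).

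Lox, which encodes the lysyl oxidase that crosslinks collagen and elastin, followed another order. It read 6.45, 7.24, 6.56 and 6.63 in mutants, 6.24, 6.08, 6.22 and 6.21 in heterozygotes, and 6.63, 6.37, 6.65 and 6.40 in wild-type mice. The heterozygotes lay below every mutant and every wild-type array, and mutant replicate 2 was the highest. The mutant minus heterozygote difference was 0.53 (SE 0.14, adjusted p = 0.0597), the mutant minus wild type difference 0.21 (adjusted p = 0.387) and the heterozygote minus wild type difference -0.32 (SE 0.14, adjusted p = 0.393). Lox passed against heterozygotes without mutant replicate 1 or 2 (adjusted p = 0.0348 and 0.0342), and without mutant replicate 3 adjusted p was 0.0574.

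In the TGF-beta, CCN and BMP antagonist role, Chrdl1 had the largest difference of all members. It encodes chordin-like 1, a secreted antagonist that binds bone morphogenetic proteins (BMPs), relatives of TGF-beta. Chrdl1 read 6.65, 6.52, 6.55 and 6.77 in mutants, 7.48, 7.29, 7.30 and 7.18 in heterozygotes, and 7.82, 7.65, 7.83 and 8.03 in wild-type mice. The groups did not overlap, and the heterozygotes lay between the mutants and the wild-type mice. Chrdl1 fell 2.32-fold against wild type (log2 difference -1.21, SE 0.08, adjusted p = 9.67e-06) and 1.61-fold against heterozygotes (log2 difference -0.69, SE 0.08, adjusted p = 0.00133). By unadjusted p it ranked at 3 among all genes in mutant minus wild type. The differences were -1.19 and -0.67 without mutant replicate 3 (adjusted p = 1.99e-05 and 0.0028).

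Heterozygotes were 1.43-fold below wild type in Chrdl1 (log2 difference -0.52, SE 0.08, adjusted p = 0.0392). It was the only member of 41 called in that comparison, where 0.135% of all genes were called. The exact permutation p was 0.0286 in each of the 3 comparisons. The heterozygote call ended without mutant replicate 1 (adjusted p = 0.0532), without heterozygote replicate 2, 3 or 4 (adjusted p = 0.0905, 0.0887 and 0.127) and without wild-type replicate 3 or 4 (adjusted p = 0.139 and 0.127).

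Ccn2, formerly connective tissue growth factor, encodes a matricellular protein induced by TGF-beta and by mechanical tension. Its level was 10.54, 10.51, 10.10 and 10.76 in mutants, 10.59, 11.20, 10.77 and 11.14 in heterozygotes, and 10.95, 11.10, 10.94 and 10.90 in wild-type mice. All mutants lay below all wild-type arrays, whereas heterozygote replicate 1 lay within the mutant range. Ccn2 fell 1.41-fold against wild type (log2 difference -0.50, SE 0.14, adjusted p = 0.0452), with -0.45 against heterozygotes (adjusted p = 0.131). Mutant replicate 3 was the lowest array, and without it the difference from wild type was -0.37 (adjusted p = 0.102). The call also ended without mutant replicate 1 or 2, heterozygote replicate 3 or any 1 wild-type array, with adjusted p between 0.0547 and 0.126. It ended as well when arrays were weighted (adjusted p = 0.0937) and under a trended and robust variance prior (adjusted p = 0.0695).

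The related Ccn1 was more scattered, at 9.11, 9.61, 8.74 and 8.61 in mutants, 9.29, 9.93, 9.61 and 9.84 in heterozygotes, and 9.29, 9.62, 9.39 and 9.58 in wild-type mice. Mutant replicates 1, 3 and 4 lay below all control arrays, and replicate 2 lay among the controls. The differences of -0.45 from wild type and -0.65 from heterozygotes did not pass (adjusted p = 0.158 and 0.0922).

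The ligands and receptors of TGF-beta itself did not pass the test. Tgfb1, the main fibrogenic ligand, differed by -0.18 from wild type (95% interval -0.36 to -0.01, adjusted p = 0.184). Tgfb2 lay between 6.86 and 7.09 in mutants, below every wild-type array (7.20 to 7.28), with a difference of -0.25 (95% interval -0.42 to -0.08, adjusted p = 0.0662). The receptor genes Tgfbr1 and Tgfbr2 differed by 0.10 and 0.06, with 95% intervals of -0.07 to 0.27 and -0.05 to 0.16. For both ligands this interval, not adjusted for the number of genes, lay below 0, and for both receptors it spanned 0. Of all genes 24.4% had an unadjusted limma p under 0.05 against wild type. The exact permutation p against wild type was 0.114 for Tgfb1 and 0.0286 for Tgfb2. Against heterozygotes the interval was -0.30 to 0.05 for Tgfb1 and -0.37 to -0.02 for Tgfb2.

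**Figure D2:**
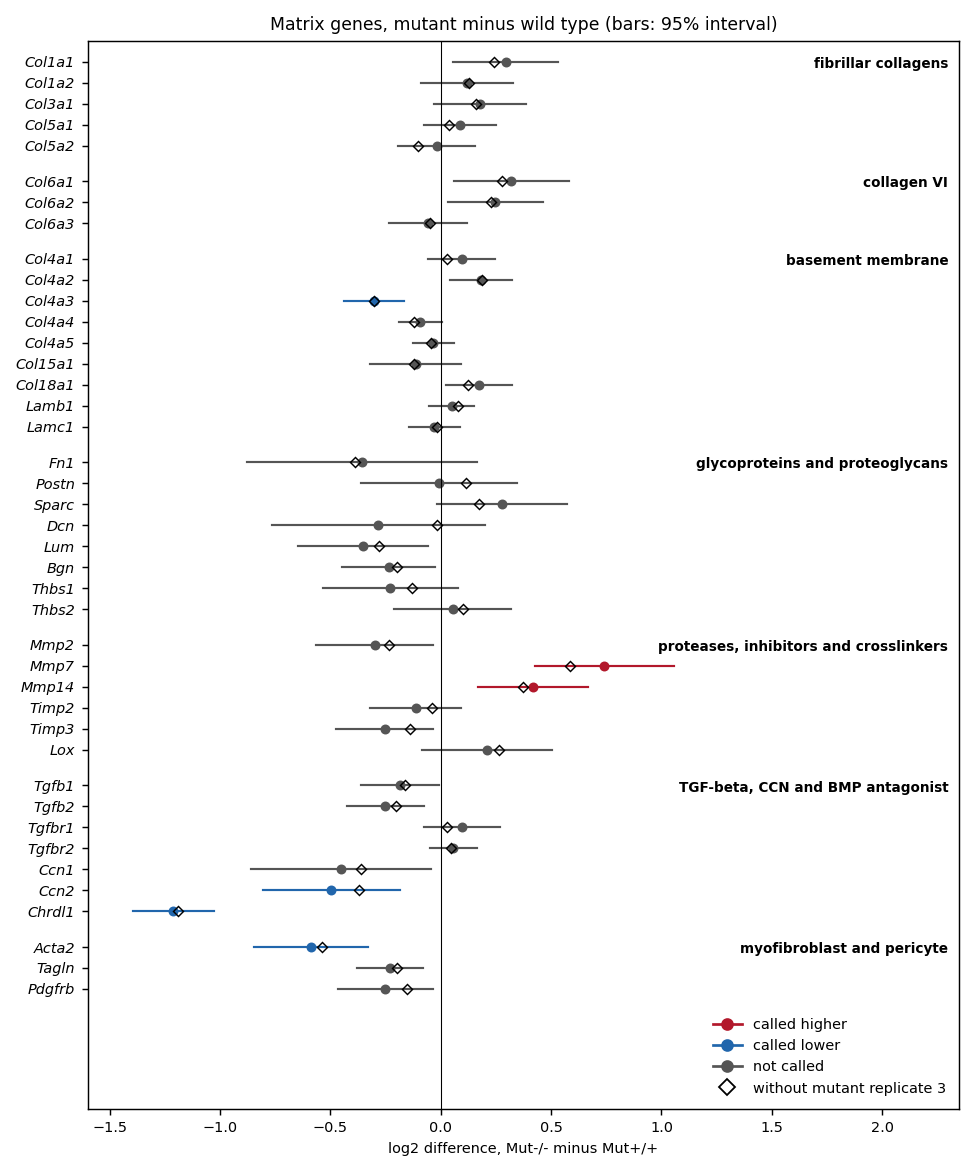
Log2 difference of the 41 measured genes, mutant minus wild type, grouped by role. Filled circles and bars are the estimate and its 95% interval from all 12 arrays, red and blue for genes called higher and lower, and open diamonds are the estimate without mutant replicate 3. Chrdl1 is farthest to the left at -1.21 and Mmp7 farthest to the right at 0.74.

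The 3 myofibroblast and pericyte genes all had a negative difference from both control groups, and Acta2 and Tagln passed the test in 1 comparison each. Acta2 encodes smooth muscle alpha actin, the usual marker of myofibroblasts, which vascular smooth muscle also expresses. Acta2 read 9.11, 9.60, 9.07 and 9.10 in mutants, 9.58, 9.85, 9.51 and 9.84 in heterozygotes, and 10.03, 9.81, 9.70 and 9.70 in wild-type mice. Mutant replicates 1, 3 and 4 lay below every control array, and replicate 2 reached the heterozygote range. Acta2 fell 1.5-fold against wild type (log2 difference -0.59, SE 0.12, adjusted p = 0.00874, exact permutation p = 0.0286). The difference from heterozygotes was -0.47 (SE 0.12, adjusted p = 0.0588, exact permutation p = 0.0857), and it passed without mutant replicate 2 (adjusted p = 0.00774). Leaving out mutant replicate 3 gave a difference from wild type of -0.54 (adjusted p = 0.0211).

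Tagln encodes transgelin, an actin-binding protein of smooth muscle and myofibroblasts. It read 7.51, 7.65, 7.40 and 7.39 in mutants, 7.72, 7.90, 7.73 and 7.86 in heterozygotes, and 7.70, 7.83, 7.73 and 7.62 in wild-type mice. All mutants lay below all heterozygotes, and only mutant replicate 2 reached into the wild-type range. Tagln fell 1.24-fold against heterozygotes (log2 difference -0.31, SE 0.07, adjusted p = 0.0316), and the difference from wild type was -0.23 (adjusted p = 0.0545). The call ended without mutant replicate 1, 3 or 4 (adjusted p = 0.0538, 0.0725 and 0.0632) and without any 1 heterozygote array (adjusted p between 0.0528 and 0.0961). The difference from wild type passed without mutant replicate 2 (adjusted p = 0.0222). Pdgfrb, the receptor of pericytes and fibroblasts for platelet-derived growth factor, differed by -0.25 from wild type (adjusted p = 0.138), or by -0.15 without mutant replicate 3.

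The promoter window of Acta2 (RefSeq, GRCm38.p6, minus strand, chr19:34255324-34255623) is shown because the gene is a target of serum response factor, which binds the CArG box. Further contractile genes follow, and a part of this factor in their levels was not tested. Capitals mark matches to the CArG box with at most 1 mismatched base, searched on both strands.
Acta2 promoter: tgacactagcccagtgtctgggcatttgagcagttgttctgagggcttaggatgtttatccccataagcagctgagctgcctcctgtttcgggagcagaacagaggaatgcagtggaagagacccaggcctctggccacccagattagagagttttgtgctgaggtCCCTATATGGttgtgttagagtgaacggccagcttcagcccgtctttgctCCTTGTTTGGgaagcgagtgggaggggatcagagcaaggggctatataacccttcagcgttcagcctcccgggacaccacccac
The 2 matches begin 84 and 34 bases before the start site. At least 1 such match stands in 21.1% of all promoter windows, and 2 or more in 3.7%. Of the 28 genes of the set with a window, 7 held a match.

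Acta2 and Tagln were set beside 8 markers of vascular smooth muscle. All 8 had a negative difference from wild type, and 3 fell, beside 6.69% of all genes. These were the smooth muscle myosin gene Myh11 (1.27-fold, adjusted p = 0.0031), the calponin gene Cnn1 (1.34-fold, adjusted p = 0.0283) and the smoothelin gene Smtn (1.3-fold, adjusted p = 0.00588). Myh11 also fell against heterozygotes (1.25-fold, adjusted p = 0.0117). Without any 1 of the 12 arrays Myh11 and Smtn kept their calls, while Cnn1 lost its call without mutant replicate 1 or 2 (adjusted p = 0.0671 and 0.0617) and without wild-type replicate 1 or 3 (adjusted p up to 0.0762). The mean of the 8 markers ran from 7.14 to 7.30 in mutants, 7.34 to 7.46 in heterozygotes and 7.35 to 7.52 in wild-type mice. The marker mean of smooth muscle was thus below all controls on every mutant array, as Acta2 was on 3 of 4. This was not particular to smooth muscle. The marker means of pericytes and mesangium, fibroblasts, endothelium, podocytes, and distal and connecting tubule were also below all controls on every mutant array. Those of the other marker lists overlapped the controls. The part of smooth muscle in the Acta2 result was not tested.

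**Figure D3:**
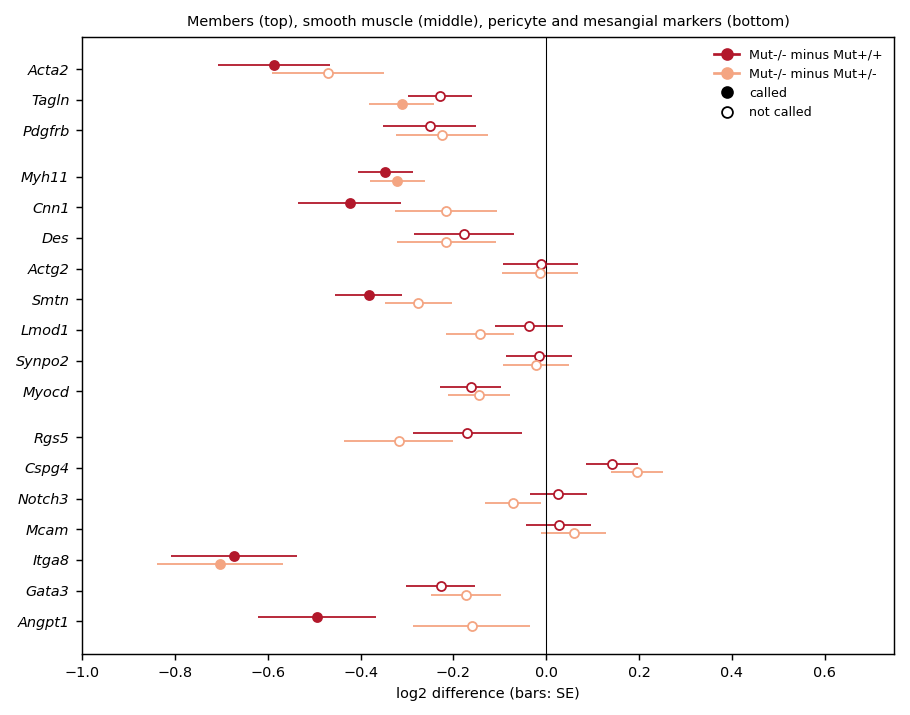
Log2 differences with standard error bars for Acta2, Tagln and Pdgfrb (top), 8 vascular smooth muscle markers (middle) and 7 pericyte and mesangial markers (bottom), mutant minus wild type in dark red and mutant minus heterozygote in light red. Filled points passed the test and open points did not. Every smooth muscle marker lies left of 0 in both comparisons, down to -0.42 for Cnn1 against wild type.

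Markers of pericytes and mesangium were divided. Of 7 measured, 2 fell against wild type and 1 against heterozygotes, or 28.6% and 14.3%, beside 6.69% and 1.46% of all genes. Itga8, the mesangial integrin chain that binds nephronectin, fell 1.60-fold against wild type (adjusted p = 0.00808) and 1.63-fold against heterozygotes (adjusted p = 0.0163). Angpt1, the angiopoietin ligand of endothelial Tie2, fell 1.41-fold against wild type (adjusted p = 0.0262), a call that ended without wild-type replicate 2, 3 or 4 (adjusted p up to 0.0786). Itga8 lost its call against heterozygotes without heterozygote replicate 4 (adjusted p = 0.0565). Without mutant replicate 3 the log2 difference of Itga8 from wild type was -0.51, against -0.67 with all arrays. That of Angpt1 was -0.35 without it. The other 5 markers did not pass. Of the 7, 3 had a positive difference from wild type and 2 from heterozygotes. The mean of the 7, which holds Itga8 and Angpt1, was 7.83 on mutant replicate 3 and 8.04 to 8.10 on the other mutant arrays. It was 8.14 to 8.25 in heterozygotes and 8.17 to 8.26 in wild-type mice. Among 8 fibroblast markers Dpt, which encodes the collagen-binding protein dermatopontin, fell 2.12-fold against wild type (adjusted p = 0.00495) and 2.45-fold against heterozygotes (adjusted p = 0.00471), and none of the other 7 passed. That is 12.5% of the list in each comparison, beside 6.69% and 1.46% of all genes lower. Of the 8 fibroblast markers 3 had a positive difference from wild type and 2 from heterozygotes. The median log2 differences were -0.10 and -0.11, against -1.08 and -1.29 for Dpt, which is part of the mean. The mean of the 8 was 6.91 to 7.14 in mutants, 7.23 to 7.39 in heterozygotes and 7.18 to 7.37 in wild-type mice. Every mutant array thus lay below every control array in this mean, in which Dpt weighs most. What this marker level adds to the matrix results was not tested.

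Among 9 basement membrane genes the one that passed was Col4a3. It encodes a collagen IV chain of the mature glomerular basement membrane, made by podocytes and by some tubule cells and mutated in Alport syndrome. Col4a3 read 8.96, 9.14, 9.0 and 8.92 in mutants, 9.45, 9.19, 9.24 and 9.28 in heterozygotes, and 9.33, 9.30, 9.31 and 9.28 in wild-type mice. All mutants lay below all controls. It fell 1.23-fold against wild type (log2 difference -0.30, SE 0.06, adjusted p = 0.00911) and 1.22-fold against heterozygotes (log2 difference -0.28, SE 0.06, adjusted p = 0.031), with an exact permutation p of 0.0286 in each. Leaving out mutant replicate 3 gave differences of -0.30 (adjusted p = 0.0183) and -0.28 (adjusted p = 0.0559). The call against heterozygotes also ended without mutant replicate 1 or 4 and without heterozygote replicate 1, 3 or 4 (adjusted p up to 0.0859).

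Its partner chains had smaller differences. Col4a4, transcribed head to head with Col4a3, lay between 8.59 and 8.74 in mutants, 8.77 and 8.80 in heterozygotes, and 8.71 and 8.77 in wild-type mice. The differences of Col4a4 were -0.09 from wild type and -0.14 from heterozygotes (adjusted p = 0.225 and 0.127). Col4a5, the X-linked partner, differed by -0.03 from wild type, with a 95% interval of -0.13 to 0.06.

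Of 5 podocyte markers measured, 3 fell against wild type and 2 against heterozygotes, beside 6.69% and 1.46% of all genes. The nephrin gene Nphs1, the podocalyxin gene Podxl and the phosphatase gene Ptpro fell by 1.2-fold, 1.32-fold and 1.17-fold (adjusted p = 0.00465, 0.00198 and 0.0148), and Nphs1 and Podxl fell against heterozygotes (adjusted p = 0.00982 and 0.0185). Ptpro lost its call without wild-type replicate 4 (adjusted p = 0.0524), and Podxl that against heterozygotes without heterozygote replicate 2 or 4 (adjusted p up to 0.067). The marker mean was 8.18 to 8.36 in mutants, 8.44 to 8.49 in heterozygotes and 8.45 to 8.53 in wild-type mice. The part of these cells in the fall of Col4a3 was not tested.

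The ubiquitous collagen IV chains had positive differences without passing. Col4a2 read 8.23, 8.49, 8.36 and 8.42 in mutants, 8.27, 8.21, 8.19 and 8.19 in heterozygotes, and 8.30, 8.26, 8.15 and 8.07 in wild-type mice. Mutant replicates 2, 3 and 4 lay above all control arrays. The differences from wild type were 0.18 for Col4a2 (95% interval 0.04 to 0.32, adjusted p = 0.102) and 0.09 for Col4a1 (95% interval -0.06 to 0.25, adjusted p = 0.465). The exact permutation p was 0.0857 for Col4a2 and 0.371 for Col4a1. Col18a1, whose fragment is endostatin, differed by 0.17 (adjusted p = 0.141), Col15a1 by -0.11, and the laminin chains Lamb1 and Lamc1 by 0.05 and -0.03.

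Col4a1 and Col4a2 are also transcribed head to head, and their RefSeq promoter windows overlap by 78 bases. The window of Col4a1 (GRCm38.p6, minus strand, chr8:11312777-11313076) is shown for that shared stretch, which is in capitals.
Col4a1 promoter: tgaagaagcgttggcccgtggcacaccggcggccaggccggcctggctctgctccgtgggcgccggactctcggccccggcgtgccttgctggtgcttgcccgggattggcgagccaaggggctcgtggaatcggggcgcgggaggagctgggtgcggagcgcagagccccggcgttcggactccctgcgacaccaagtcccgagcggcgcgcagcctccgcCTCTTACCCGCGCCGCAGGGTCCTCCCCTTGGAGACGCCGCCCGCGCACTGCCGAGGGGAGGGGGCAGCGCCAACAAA
The annotated start sites lie 21 bases apart. The highest level of each gene was on a mutant array, replicate 3 for Col4a1 (8.78) and replicate 2 for Col4a2 (8.49).

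In the 5 fibrillar collagens and 3 collagen VI chains the SD was 0.17 to 0.31 in mutants, 0.04 to 0.10 in heterozygotes and 0.07 to 0.14 in wild-type mice. Col1a1, a chain of the main interstitial collagen, read 8.32, 9.003, 8.90 and 8.72 in mutants, 8.55, 8.57, 8.47 and 8.52 in heterozygotes, and 8.55, 8.39, 8.43 and 8.39 in wild-type mice. Mutant replicates 2, 3 and 4 lay above every control array, and replicate 1 lay below every control array. The difference from wild type was 0.29 (SE 0.11, 95% interval 0.06 to 0.53, adjusted p = 0.117), and that from heterozygotes 0.21 (adjusted p = 0.413). The exact permutation p was 0.143 against wild type and 0.229 against heterozygotes. The interval rests on a spread estimate shared by all genotypes, so it can be too narrow where mutants spread more. Col1a1 averaged 8.73 ± 0.30 in mutants, 8.53 ± 0.04 in heterozygotes and 8.44 ± 0.08 in wild-type mice (SD, n = 4 each).

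Collagen VI, the beaded filament around fibroblasts and basement membranes, was alike in its first chains. Col6a1 read 7.80, 8.53, 8.36 and 8.23 in mutants, 8.11, 8.10, 8.04 and 8.01 in heterozygotes, and 7.99, 7.87, 8.03 and 7.74 in wild-type mice. Mutant replicates 2, 3 and 4 were again above all controls, and replicate 1 lay within the wild-type range. The differences from wild type were 0.32 for Col6a1 (SE 0.12, adjusted p = 0.118), 0.25 for Col6a2 (SE 0.10, adjusted p = 0.14) and -0.06 for Col6a3 (SE 0.08, adjusted p = 0.728).

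Col1a2, Col3a1 and Col5a1 had smaller differences from wild type of 0.12, 0.18 and 0.09, and Col5a2 one of -0.02. Col3a1, the partner fibril of type I collagen, read 7.89 in mutant replicate 1 and 8.31 to 8.45 in the other mutants, against 8.05 to 8.15 in heterozygotes and 7.97 to 8.19 in wild-type mice. The upper bounds of the 95% intervals of the 5 fibrillar genes lay between 0.15 (Col5a2) and 0.53 (Col1a1). Over the 5 genes the mean level was 7.88 to 8.33 in mutants, 8.04 to 8.13 in heterozygotes and 7.96 to 8.11 in wild-type mice.

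The number of genes that passed depended on mutant replicate 1. It held the lowest level of all 12 arrays in 11 of the 41 genes and the highest in none, while mutant replicate 3 held the lowest in 12 and the highest in 7. Without replicate 1, Col1a1, Col3a1, Col6a1, Col6a2, Col4a2, Col18a1 and Sparc passed as higher than wild type besides Mmp7 and Mmp14, with a log2 difference of 0.43 for Col1a1 (adjusted p = 0.00302), 0.30 for Col3a1 (adjusted p = 0.00889) and 0.46 for Col6a1 (adjusted p = 0.00489). Under that setting 9.67% of all genes were called. Mutant replicate 1 was the lowest mutant array in the newly called genes, so leaving it out had to raise their mutant mean. These calls show how the counts depend on that array and are not further evidence of a rise. Against heterozygotes 5 genes then passed as higher, namely Col1a1 (log2 difference 0.34, adjusted p = 0.0225), Col3a1 (0.28, adjusted p = 0.0308), Mmp7, Mmp14 and Lox, and 1 as lower, with 2.28% of all genes called. Without mutant replicate 2, the array with the neutrophil genes, 1 was called higher and 6 lower, among them Ccn1, Thbs1 and Tagln, and 8.14% of all genes were called. Without mutant replicate 3, with the adrenal genes, the log2 difference of Col1a1 from wild type was 0.24 (adjusted p = 0.25), and without mutant replicates 2 and 3 together it was 0.08 (adjusted p = 0.719).

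The spread among mutants was wide for the set as a whole. The median SD of the 41 genes was 0.22 in mutants, 0.09 in heterozygotes and 0.09 in wild-type mice. Over all genes these medians were 0.10, 0.08 and 0.08. In 39 of the 41 genes the SD was larger in mutants than in wild-type mice, against 59.8% of all genes. It was larger in mutants than in heterozygotes in 31 of the 41, against 66.1% of all genes. Without mutant replicate 3 it was larger than in wild-type mice in 31 of the 41, against 49.2% of all genes. It was then larger than in heterozygotes in 31 as well, against 54.9% of all genes. The median SD of the set in mutants was 0.19 without that array.

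**Figure D4:**
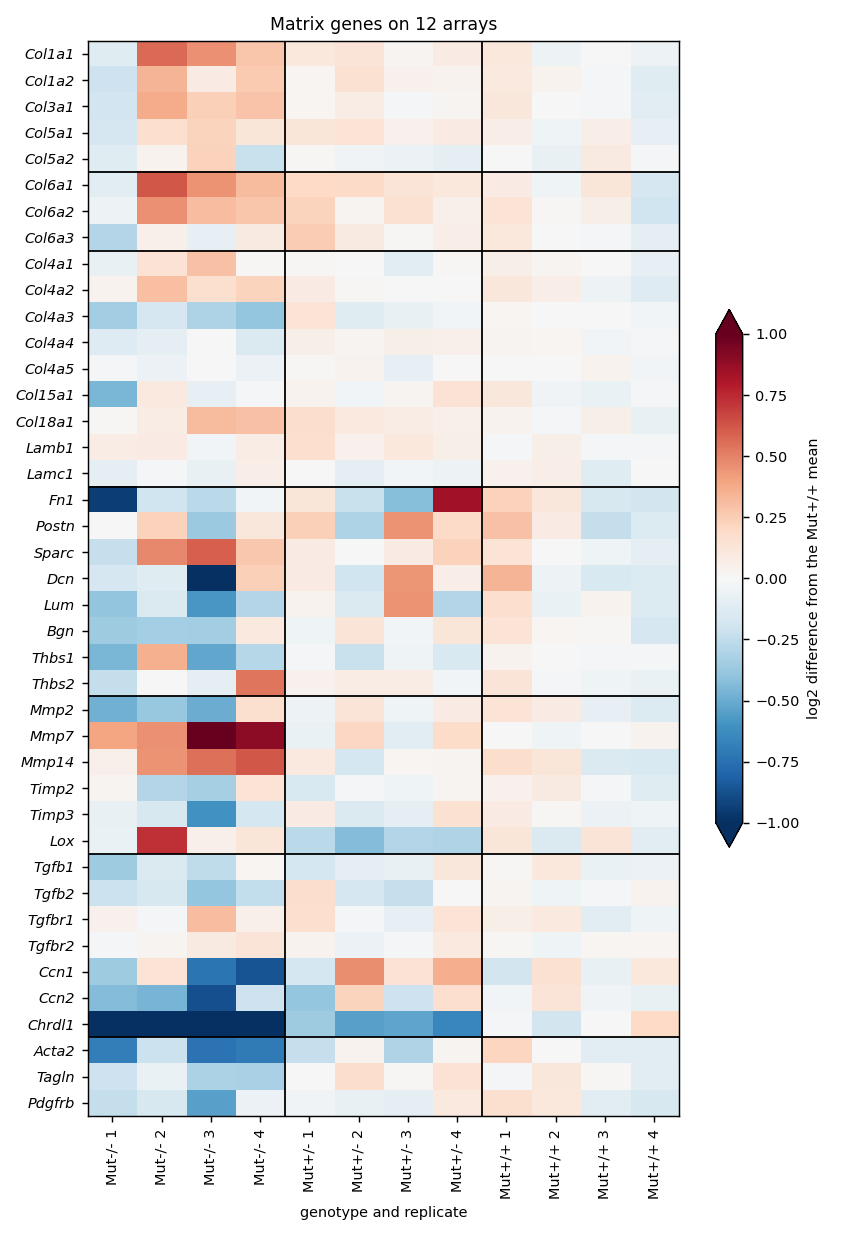
Log2 difference of each of the 41 genes from its wild-type mean on the 12 arrays, with Mut-/- arrays at the left, Mut+/- in the middle and Mut+/+ at the right. Horizontal lines divide the roles, and colours stop at 1 and -1. Mutant replicate 1 is blue in every fibrillar collagen and collagen VI row, where replicates 2, 3 and 4 are mostly red, and Chrdl1 is dark blue in all 4 mutants.

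None of the 8 glycoproteins and proteoglycans passed the test in either comparison with the mutants. Lum, which encodes the collagen-binding proteoglycan lumican, read 6.11, 6.36, 5.92 and 6.21 in mutants, 6.54, 6.36, 6.95 and 6.21 in heterozygotes, and 6.67, 6.43, 6.54 and 6.37 in wild-type mice. All mutants lay below all wild-type arrays, with 6.36 and 6.37 as the nearest pair, and they overlapped the heterozygotes. The differences were -0.35 from wild type (SE 0.14, adjusted p = 0.127) and -0.37 from heterozygotes (SE 0.14, adjusted p = 0.199). Without mutant replicate 3 the first was -0.28 (adjusted p = 0.276), and without heterozygote replicate 3 Lum passed against wild type (adjusted p = 0.048).

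Fn1, the gene of fibronectin, had the largest SD of the set when pooled over the 3 genotypes (0.41). It ranged from 8.23 in replicate 1 to 9.14 in mutants, from 8.75 to 10.01 in heterozygotes and from 8.98 to 9.40 in wild-type mice. Its difference from wild type was -0.36 with a 95% interval of -0.88 to 0.16 (adjusted p = 0.403). Sparc, a collagen-binding matricellular protein gene, read 10.32 in mutant replicate 1 and 10.82 to 11.15 in the other mutants, against 10.54 to 10.78 in heterozygotes and 10.46 to 10.69 in wild-type mice. Its difference from wild type was 0.28 (adjusted p = 0.231).

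Dcn, the gene of the TGF-beta-binding proteoglycan decorin, was at 8.99 in mutant replicate 3 and between 9.87 and 10.51 on every other array. Its difference from wild type was -0.28 with that array and -0.02 without it. Bgn, the gene of biglycan, lay between 11.13 and 11.15 in mutants 1 to 3 and at 11.59 in replicate 4, with a difference of -0.24 (adjusted p = 0.155). Without mutant replicate 4 Bgn was called lower in both comparisons. The thrombospondin genes Thbs1, whose product can activate latent TGF-beta, and Thbs2 differed by -0.23 and 0.05. Postn, the periostin gene, had a difference of -0.01 (adjusted p = 0.986).

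The wider pathway was described with 120 further genes in 6 lists. Of these 17 passed against wild type, all of them lower, or 14.2% beside 9.66% of all genes (6.69% of all genes lower). Against heterozygotes 4 passed, also all lower, or 3.33% beside 2.54% of all genes (1.46% of all genes lower). The median difference of the 120 genes was -0.04 against wild type and -0.06 against heterozygotes. Without mutant replicate 3, 10 of the 17 were still called, and all 17 kept a negative difference. Without mutant replicate 1 the calls were 3 higher and 15 lower, and without mutant replicates 2 and 3 together 8 of the 17 were still called. The calls of 6 of the 17 held without any 1 of the 12 arrays, namely Npnt, Adamts5, Plau, Plat, Pcolce2 and Ltbp1. The other 11 lost theirs without at least 1 array. Leaving out wild-type replicate 4, 2 or 3 left 7, 8 and 10 genes called, and leaving out mutant replicate 3 left 11.

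Among 19 further proteases and inhibitors 4 fell against wild type, or 21.1% beside 6.69% of all genes lower. The aggrecanase gene Adamts5 was 1.85-fold lower (adjusted p = 0.0123), the urokinase gene Plau 1.34-fold (adjusted p = 0.0018), the tissue plasminogen activator gene Plat 1.33-fold (adjusted p = 0.00726) and the brush border meprin gene Mep1a 1.24-fold (adjusted p = 0.0206). Mep1a also fell against heterozygotes (1.27-fold, adjusted p = 0.0309). Mep1a lost both calls without mutant replicate 3 (adjusted p = 0.0502 and 0.0696), that against wild type without wild-type replicate 2 or 4, and that against heterozygotes without mutant replicate 1 or 4 or any 1 heterozygote array (adjusted p up to 0.0926). Of 17 collagen processing and crosslinking genes 2 fell against wild type, or 11.8% beside the same 6.69%. Pcolce2, whose product enhances procollagen C-proteinase, fell 1.83-fold against wild type (adjusted p = 0.000679) and 1.61-fold against heterozygotes (adjusted p = 0.00809). Plod1, a lysyl hydroxylase gene, fell 1.18-fold (adjusted p = 0.0486), a call that ended without any 1 array other than mutant replicates 2 and 4 (adjusted p up to 0.141).

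Of 35 further TGF-beta and BMP pathway genes 6 fell against wild type, or 17.1% beside 6.69% of all genes lower. None rose, beside 2.96% of all genes higher. The latent TGF-beta binding protein genes Ltbp1 and Ltbp4 were 1.38-fold and 1.35-fold lower (adjusted p = 0.0123 and 0.0296), the endothelial co-receptor gene Eng 1.32-fold (adjusted p = 0.0311) and the BMP and Wnt antagonist gene Sostdc1 1.42-fold (adjusted p = 0.0499). Ltbp4 fell against heterozygotes as well (1.44-fold, adjusted p = 0.0281). Ltbp4 and Sostdc1 lost their call against wild type without mutant replicate 3 (adjusted p = 0.068 and 0.0846), and Ltbp4 that against heterozygotes (adjusted p = 0.0514). Sostdc1 also lost its call without mutant replicate 2 or 4 (adjusted p = 0.0825 and 0.0652), without any 1 heterozygote array and without wild-type replicate 2, 3 or 4, Ltbp4 without mutant replicate 2 (adjusted p = 0.0741) or any 1 wild-type array, and Eng without any 1 wild-type array (adjusted p up to 0.0843).

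Among 16 further basement membrane genes 3 fell against wild type, or 18.8% beside 6.69% of all genes lower. The laminin chain genes Lama2 and Lama4 were 1.44-fold and 1.29-fold lower (adjusted p = 0.0296 and 0.0302), and Npnt, the gene of nephronectin, the ligand of the Itga8 integrin, 1.27-fold (adjusted p = 0.0121). Lama2 and Lama4 lost their calls without mutant replicate 3 (adjusted p = 0.0721 and 0.0688), Lama2 also without mutant replicate 2 or any 1 wild-type array, and Lama4 also without mutant replicate 1 or wild-type replicate 1 or 2 (adjusted p up to 0.0816). Of 22 further glycoproteins and proteoglycans 2 fell against wild type, or 9.09% beside the same 6.69%. The tenascin gene Tnc and the fibromodulin gene Fmod fell 1.45-fold and 1.24-fold (adjusted p = 0.0201 and 0.037). Tnc lost its call without mutant replicate 2 or wild-type replicate 3 or 4 (adjusted p up to 0.0611), and Fmod without mutant replicate 1, 2 or 3, heterozygote replicate 4 or any 1 wild-type array (adjusted p up to 0.0911). Fbln1, the gene of the elastic fibre protein fibulin, fell against heterozygotes alone (1.17-fold, adjusted p = 0.0466) and was named after its value was seen. That call ended without any 1 array other than mutant replicate 4 (adjusted p up to 0.137). None of 11 further collagen genes passed in either comparison.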

How the data were processed

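The data were 12 Affymetrix mouse gene arrays of whole-kidney total RNA, with groups and replicate numbers read from the sample titles. Per the submitters' processing notes, the authors used RMA and Affymetrix Expression Console (version 1.2.1), and the deposited values are log2 signals per probe set. RMA equalises the array distributions and compresses differences near background. The labelling text names a human array, while the sample descriptions name the mouse one, and the probe sets matched mouse genes. No build for the probe sets is stated in these sources. Of 35552 probe sets, 21785 had 1 gene symbol in the platform annotation, and the one with the highest mean over 12 arrays stood for each of 19934 genes.

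All 3 groups were fitted together with limma 3.58.1 (lmFit, eBayes) in R 4.3.3, data.table (version 1.17.8), with Benjamini-Hochberg adjustment over all 19934 genes. The groups shared an estimate of the spread of each gene, so SEs and intervals can be too narrow where mutants spread more widely. Exact tests were two-sided permutations of 4 against 4 arrays. Nothing in the labels says how the mice were bred or whether samples shared a day, so the p-values measure the spread between these arrays, whose number limits the precision. The fit was tested on simulated data. Alternatives changed the arrays, groups, probe sets, low-value filter, normalization, weights, variance prior or block used. The members and lists were chosen with earlier results of these data known, so their counts are given beside those of all genes and not as independent evidence.

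Described array by array were members called in any comparison, members whose groups did not overlap with a difference of at least 0.3 in a comparison with the mutants, and otherwise the largest difference of a role. Further members were given values after these were seen. Of each pathway list up to 4 called genes with the largest difference from wild type were named, and of the marker lists called genes. Promoter sequences are RefSeq's, of GRCm38.p6. Python 3.11.15 with matplotlib 3.10.9 drew the figures.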

Additional observations from a re-analysis of the deposited data

Results flagged for a closer look

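In 123 groups of 4 arrays (41 genes in 3 genotypes), an array lay far from the other 3 of its group in 7 cases, close to the 5% that chance gives. In mutants these were Acta2 in replicate 2, at 9.60 against 9.07 to 9.11 in the other 3, Bgn in replicate 4, at 11.59 against 11.13 to 11.15, and Lamb1 in replicate 3, at 9.73 against 9.83 to 9.84. In heterozygotes they were Col1a2 in replicate 2, at 8.80 against 8.68 to 8.70, and Col4a1 in replicate 3, at 8.37 against 8.48 to 8.49. In wild-type mice they were Lamb1 and Tgfbr2, both in replicate 2, at 9.81 against 9.74 to 9.75 and at 9.20 against 9.26 to 9.27.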

How the results depend on the processing

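Across 23 settings, 473 of 548 values of the genes described array by array kept their direction and their side of the threshold, 50 lost their call, 23 gained one and 2 changed sign. Against wild type, Chrdl1, Acta2, Mmp7 and Col4a3 were called under every setting run, as was Chrdl1 against heterozygotes. Without mutant replicates 2 and 3 together, a setting chosen after seeing the data, Col1a1 and Col6a1 turned to -0.0073 and -0.0549 against heterozygotes, and the counts became 1 member higher against wild type and 5 lower against heterozygotes. The signals near background and 4 arrays a group limit what small differences can show.

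Same-numbered arrays of different groups did not deviate together (correlations of deviations from -0.24 to 0.17 over 12 pairings, highest with the own number in 1), so replicate numbers were not treated as pairs. With the replicate number as a block, 1 member was higher against wild type, 2 further genes differed from heterozygotes and 0 members were lower in heterozygotes than in wild type. Under that block adjusted p was 0.0798 for Mmp14 and 0.0379 for Tagln against wild type, 0.0639 for Col4a3 and 0.0493 for Acta2 against heterozygotes, and 0.0687 for Chrdl1 in heterozygotes against wild type.

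Leaving out each array in turn gave 1 to 9 members higher and 3 to 6 lower against wild type, with 7 to 24 further pathway genes. Against heterozygotes it gave 0 to 5 higher and 1 to 6 lower, with 1 to 10 further genes. For heterozygote against wild type it gave 0 to 1 lower and 0 to 1 further gene, and no member higher. With only the 2 groups compared in the fit, the counts were 1 higher and 9 further genes against wild type, 0 higher, 1 lower and 1 further gene against heterozygotes, and 1 further gene for heterozygote against wild type. Members higher against heterozygotes numbered 2 with every probe set on its own, with array weights, with quantile normalization and with pooled controls. Pooled controls gave 5 lower and 14 further genes, the trended and robust prior 8 further genes and quantile normalization 7. For heterozygote against wild type, array weights and the trended prior each gave 1 further gene. The cause of these shifts was not tested.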

Other observations

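Markers of other cell types are given as values, beside 2.96% of all genes higher and 6.69% lower than wild type. Of 9 endothelial markers Ehd3, Emcn and Cdh5 fell against wild type, by 1.49-fold, 1.53-fold and 1.3-fold (adjusted p = 0.000679, 0.0143 and 0.0226). The log2 difference of Emcn was -0.62, or -0.45 without mutant replicate 3. The endothelial marker mean was 8.83 on mutant replicate 3 and 9.18 to 9.20 on the other mutant arrays. It was 9.21 to 9.39 in heterozygotes and 9.31 to 9.45 in wild-type mice. Macrophage markers were divided. The lysozyme gene Lyz2 and the lysosomal gene Cd68 rose 2.4-fold and 1.57-fold against wild type (adjusted p = 0.0281 and 0.0342), while Csf1r, the receptor of macrophage growth factor, fell 1.56-fold (adjusted p = 0.0171) and fell 1.59-fold against heterozygotes (adjusted p = 0.0319). Lyz2 lost its call without mutant replicate 2, the array with high S100a8 and S100a9 (adjusted p = 0.071), without mutant replicate 4 (adjusted p = 0.0659) and without wild-type replicate 2, 3 or 4. Cd68 lost its call without mutant replicate 2, 3 or 4 (adjusted p = 0.0855, 0.083 and 0.0572) and without wild-type replicate 2, 3 or 4. Csf1r lost its call against wild type without wild-type replicate 2 or 4, and that against heterozygotes without any 1 heterozygote array or wild-type replicate 2. The log2 difference of Csf1r from wild type was -0.64, or -0.43 without mutant replicate 3. Cdh5 lost its call without mutant replicate 3 (adjusted p = 0.0502) and without wild-type replicate 1 or 2. The mean of the 9 macrophage markers was 7.79 to 8.47 in mutants, 7.87 to 8.42 in heterozygotes and 7.76 to 7.998 in wild-type mice. None of 6 markers of T and B cells passed. The adipocyte marker mean was 6.90 to 7.69 in mutants, 7.14 to 7.42 in heterozygotes and 8.31, 7.49, 7.16 and 7.93 in wild-type replicates 1 to 4, so the groups overlapped. The medullary catecholamine gene Th read 8.45 on mutant replicate 3, against at most 7.04 elsewhere.

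Of the tubule lists, none of the 5 thick ascending limb markers passed in either comparison with the mutants. Of 9 proximal tubule markers the anion transporter gene Slc22a7 and the cubilin gene Cubn fell against wild type, by 2.87-fold and 1.28-fold (adjusted p = 0.00973 and 0.00401). The log2 difference of Slc22a7 was -1.52, or -1.11 without mutant replicate 3. Of 5 distal and connecting tubule markers the calbindin gene Calb1 fell 2.02-fold, the sodium-calcium exchanger gene Slc8a1 2.07-fold, the magnesium channel gene Trpm6 1.43-fold and Slc12a3, the sodium chloride cotransporter blocked by thiazides, 1.27-fold (adjusted p = 0.0203, 0.0262, 0.0254 and 0.00878). Of these, Slc12a3 kept its call without any 1 of the 12 arrays. The mean of the 5 distal markers was 9.21 to 10.25 in mutants, 10.39 to 10.58 in heterozygotes and 10.54 to 10.59 in wild-type mice. Its lowest value was on mutant replicate 3. Slc8a1 lost its call without mutant replicate 2 (adjusted p = 0.0658) or wild-type replicate 2, 3 or 4, and without mutant replicates 2 and 3 together its log2 difference was -0.40, against -1.05 with all arrays. Trpm6 was not called when mutant replicate 3 (adjusted p = 0.0629) or wild-type replicate 1, 2 or 4 was left out, and Calb1 not without wild-type replicate 3 or 4 (adjusted p up to 0.0568). Cubn and Slc12a3 also fell against heterozygotes, as did the parvalbumin gene Pvalb, by 2.22-fold (adjusted p = 0.0385, 0.00982 and 0.0197). In the collecting duct list the water channel gene Aqp3 rose 1.23-fold against wild type and 1.19-fold against heterozygotes (adjusted p = 0.00505 and 0.0328), 1 of 7 markers there. Against heterozygotes the calls of Cubn and Aqp3 ended without 9 and 8 of the 12 arrays, each left out alone, and that of Pvalb without heterozygote replicate 1 or 3. The endothelial gene Ehd3 fell 1.34-fold against heterozygotes as well (adjusted p = 0.0115).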
